A study of Mus musculus with 32 samples.

Results

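The complement and coagulation genes described here are 42 genes chosen by name from the 54446 genes counted in the study. They cover the clotting factors, fibrinogen, plasminogen, the plasma inhibitors of both cascades, the protein C pathway and the components of the classical, lectin, alternative and terminal complement pathways. Each name matched 1 gene, and all 42 were tested in every comparison. Messenger RNA was measured by bulk sequencing in 32 tumours of the liver. They arose from a mouse hepatocellular carcinoma line, BNL-MEA, placed under the capsule of the left liver lobe of BALB/c mice, and the tumours are labelled hepatocellular carcinoma. The purpose was to describe the effect of the multikinase inhibitor regorafenib on the tumour and its immune cells, beside an antibody to VEGFR2 and an antibody to PD1.

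The tumours came from 3 experiments, which the labels call batches, and every experiment had its own vehicle group. In the dose experiment there were 4 tumours under vehicle, 3 under regorafenib at 5 mg/kg/day (low dose) and 3 under 20 mg/kg/day (high dose). In the DC-101 experiment there were 4 under vehicle, 3 under the low dose and 3 under the anti-VEGFR2 antibody DC-101, given as 800 μg on days 1, 3 and 5. In the anti-PD1 experiment there were 3 each under vehicle, the low dose, an antibody to PD1, and the low dose with that antibody. All tumours came from the same single cell line and grew inside host liver, whose cells can be in the sample, and no tumour-free liver was among the 32 libraries. Age and sex were not given in the sources used here.

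Most of the plasma proteins of coagulation and complement are made by hepatocytes and secreted into blood, where proteases circulate as inactive precursors and activate each other in order. Coagulation starts when tissue factor (F3) on a cell surface meets factor VII and ends when thrombin (F2) turns fibrinogen into fibrin. Complement is triggered by antibody, by lectins or spontaneously, and the 3 routes meet at C3. A smaller group of regulators sits on cells, above all on endothelium, such as thrombomodulin (Thbd) and the endothelial protein C receptor (Procr).

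The libraries held 16767130 to 27693689 counted reads, and values below are CPM, read counts brought to a common library total and scaled by the trimmed mean of M-values (TMM) within each experiment, or their log2. The levels of hepatocyte markers differed far more between libraries than the depth did. Alb, the serum albumin gene that marks hepatocytes, ranged from 11.01 to 27943 CPM. In 3 libraries of the DC-101 experiment it was almost absent: 13.5 CPM in vehicle replicate 1, 11.01 CPM in vehicle replicate 4 and 23.1 CPM in DC-101 replicate 1, against 280.4 CPM or more in the other 29 libraries. The mean log2 CPM of 15 hepatocyte markers was −0.14, −0.10 and 1.38 in these 3 and 2.90 to 11.74 in the rest. The epithelial marker Krt8 was at 4.54 to 10.2 CPM in the same 3 libraries, and also at 8.55 CPM in a low dose tumour beside anti-PD1 (replicate 2), whose Alb was 2100.3 CPM, while the mean log2 CPM of 7 fibroblast markers was 9.09 to 9.54, inside its range elsewhere. In bulk tumour RNA fewer cells of a type and less RNA per cell cannot be told apart, and this holds for every value that follows.

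Members were split by how their log2 CPM moved with Alb within treatment groups, as deviations from the group mean over the 32 libraries and 10 groups. At a Pearson r of 0.8 or more, 30 members followed Alb (r from 0.813 to 0.982). Another 8 were intermediate, with r from 0.504 to 0.797, namely C3, C4b, C2, Cfb, C1ra, C1s1, Masp1 and Tfpi. The remaining 4 had r from −0.224 to 0.128 and are called local: F3, Thbd, Procr and Pros1. These r values describe libraries that share one cell line and their depth of sequencing, and they carry no test. Masp2 (0.813) and Serping1 (0.813) lay just inside the class that follows Alb and C4b (0.797) just outside it, whereas C1s1 (0.504) and Pros1 (0.128) were the neighbours across the lower limit. The slope on Alb comes from the same values as r and so differs between the classes by construction. For each log2 unit of Alb, members that followed it moved by 0.48 to 1.01 log2 units, the intermediate ones by 0.117 to 0.425 and the local ones by −0.038 to 0.017.

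**Figure D1:**
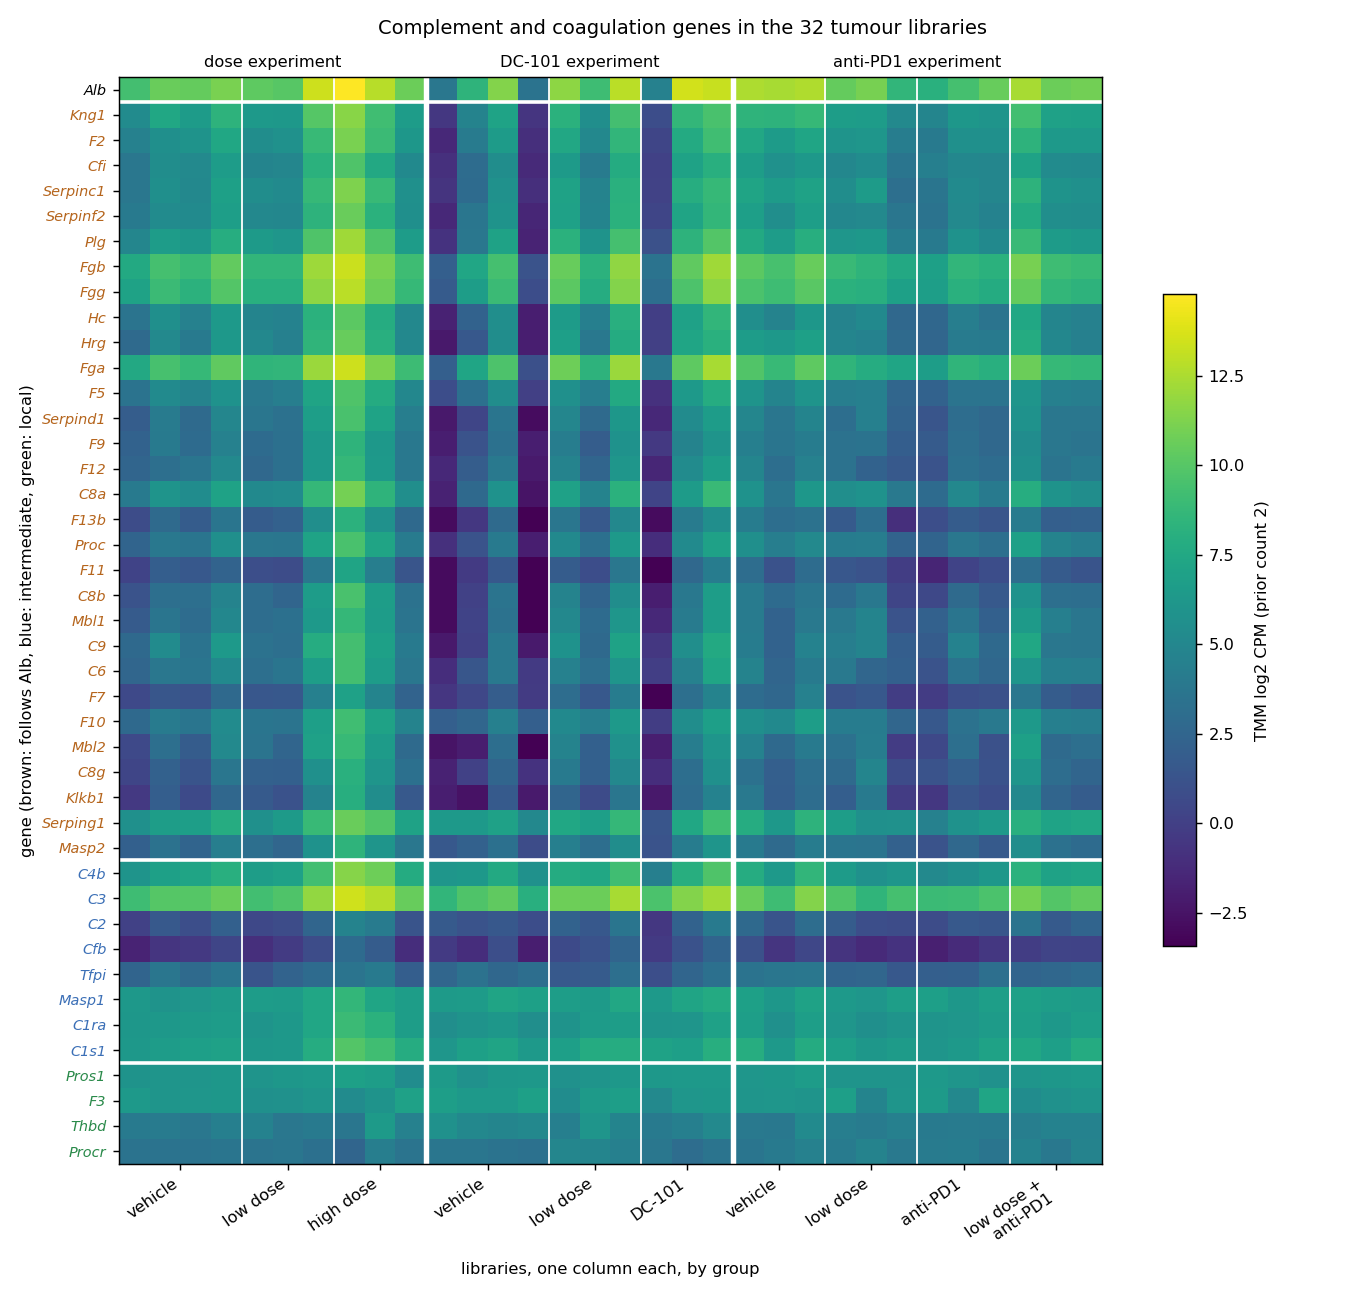
Level of Alb and of the 42 genes (rows, ordered by r with Alb) in the 32 libraries (columns, by group), as TMM log2 CPM on the colour scale. The 30 brown genes brighten and darken with Alb, the 3 darkest columns are the libraries with Alb between 11.01 and 23.1 CPM, and the 4 green genes at the bottom do not follow them.

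Within single experiments r with Alb is a description only, since the classes were chosen on these same libraries. Among the 30 members that followed Alb, r was 0.95 to 0.988 within the 10 libraries of the dose experiment and 0.821 to 0.995 within the 10 that belong to DC-101. In the 12 libraries of the anti-PD1 experiment r was 0.57 to 0.914, and 17 of the 30 members reached 0.8 there. The class depended on the experiment for the intermediate members: 7 of 8 reached 0.8 in the dose experiment, 2 of 8 where DC-101 was given and 0 of 8 where anti-PD1 was given. Of the local members Pros1 reached 0.807 in the dose experiment and had −0.131 and −0.615 in the other two.

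**Figure D2:**
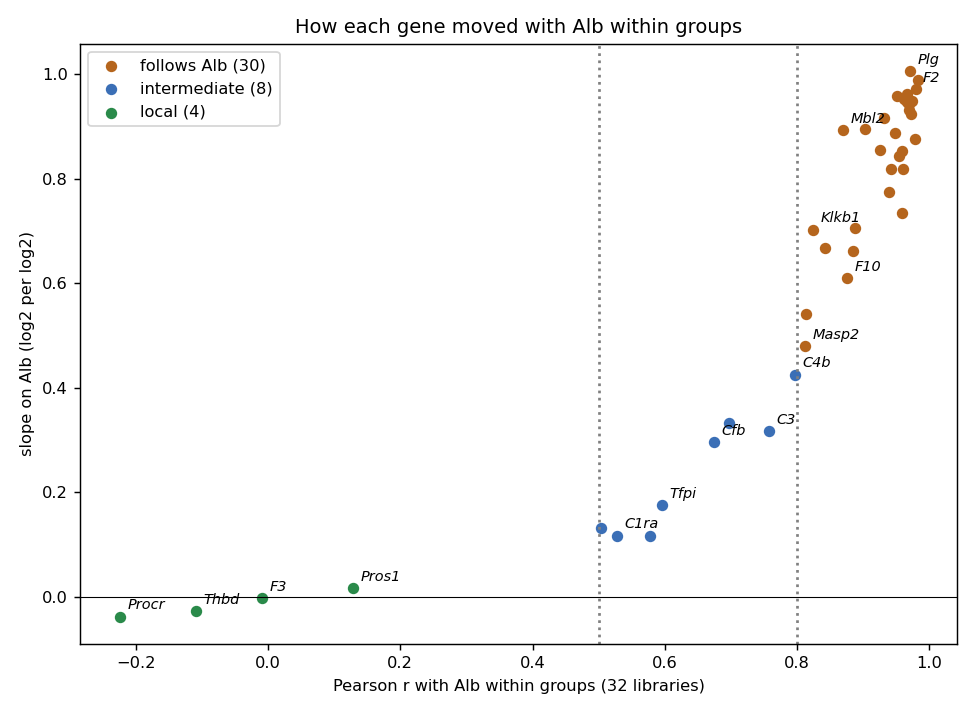
Pearson r with Alb within groups (horizontal axis) and slope on Alb in log2 per log2 (vertical axis) for each of the 42 genes, coloured by class, with dotted lines at the class limits of 0.5 and 0.8. The 4 local genes sit at a slope near 0, the 8 intermediate genes lie between 0.117 and 0.425, and most genes that follow Alb approach a slope of 1.

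The fibrinogen genes were the most abundant of the members that followed Alb. Fga, Fgb and Fgg encode the alpha, beta and gamma chains of fibrinogen and lie side by side on chromosome 3, with gaps of 11 kb between Fgg and Fga and 6.51 kb between Fga and Fgb. Per kilobase of exon, the median levels in the 11 vehicle libraries were 235 CPM for Fgg, 176 CPM for Fgb and 154 CPM for Fga, with C3, at 194 CPM, between the first and the second of these. Their vehicle ranges overlapped almost entirely (0.816 to 522, 0.602 to 397 and 0.642 to 434 CPM per kilobase), but library by library Fgg per kilobase was above Fgb in 11 of 11 vehicle tumours and above Fga in 9 of 11. Fga was above Fgb in 9 of 11, the reverse of the order of their medians. Within groups the 3 chains moved together, with r of 0.998 or 0.999 for each pair, and still 0.973 to 0.984 once the slope on Alb had been removed. The same r over all 435 pairs of members that followed Alb had a median of 0.71 after that removal. Other neighbouring members with a high r after removal were F7 and F10, 1.5 kb apart on chromosome 8 (0.939), and C1ra and C1s1, 6.9 kb apart on chromosome 6 (0.953). For C8b with C8a it was 0.804 and for Hrg with Kng1 0.783, whereas F11 with Klkb1 (0.675) and Cfb with C2 (0.67) lay below the median of the pairs.

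Because these genes moved together, the sequences just before the starts of Alb, the 3 fibrinogen genes and Hc (complement C5) are shown. They are the 120 bases before the start site in the gene's direction, from RefSeq on GRCm38.p6. Capitals mark the letters GTTAAT or their reverse complement ATTAAC, part of the recognition sequence of the hepatocyte factor HNF1, searched on both strands with CAAAGT, part of that of HNF4, of which these stretches hold no match.
Alb (chr5:90460750-90460869, plus strand): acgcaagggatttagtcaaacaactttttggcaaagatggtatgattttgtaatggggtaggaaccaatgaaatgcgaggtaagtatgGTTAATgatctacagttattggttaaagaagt
Fga (chr3:83026033-83026152, plus strand): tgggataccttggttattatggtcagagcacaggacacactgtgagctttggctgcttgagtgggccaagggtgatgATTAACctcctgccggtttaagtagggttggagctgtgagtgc
Fgb (chr3:83049864-83049983, minus strand): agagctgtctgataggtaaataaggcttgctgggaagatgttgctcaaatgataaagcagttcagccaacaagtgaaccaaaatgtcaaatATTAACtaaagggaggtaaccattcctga
Fgg (chr3:83007604-83007723, plus strand): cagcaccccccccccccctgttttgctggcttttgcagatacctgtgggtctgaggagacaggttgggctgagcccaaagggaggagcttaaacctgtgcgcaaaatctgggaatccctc
Hc (chr2:35061413-35061532, minus strand): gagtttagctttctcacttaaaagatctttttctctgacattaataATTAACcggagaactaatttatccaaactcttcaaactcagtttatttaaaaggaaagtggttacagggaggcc

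In windows of 300 bases, 250 before and 50 after the start, 7 of the 25 members that followed Alb and had a RefSeq promoter held GTTAAT (28%), against 7.1% of all 32851 promoters. CAAAGT was in 6 of these 25 (24%) and in 14.4% of all promoters. Members were counted by gene, with a match in any of its windows, and all promoters by window, so the shares are in unlike units. Among the intermediate members 1 of 4 held each motif, and among the local members 0 of 3 held GTTAAT and 1 of 3 held CAAAGT. Such letters are a description of the window and not a site, and Fgg, whose r with Fga was 0.998, held neither.

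The vitamin K-dependent clotting factors followed Alb, thrombin's precursor most closely. F2, prothrombin, was at 0.307 and 0.405 CPM in the 2 vehicle tumours with almost no Alb, at 17.5 and 92.4 CPM beside them in the same group and at 23.95 to 170.1 CPM in the vehicle tumours of the dose experiment. The highest F2 level, 2263 CPM, was in high dose replicate 1, which also had the highest Alb, 27943 CPM. F2 moved by 0.97 log2 units per unit of Alb, with an r of 0.98, and as a percentage of the Alb level it lay between 1.74 and 8.10 in all 32 libraries. F9 (slope 0.734), F10 (0.61) and F7 (0.663) had lower slopes than F2, and so did F5 (0.819), the cofactor of factor X.

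The contact system genes and plasminogen also followed Alb. Kng1, the kininogen gene, had the highest r with Alb of all members (0.982, slope 0.988), and Plg, plasminogen, had the highest slope (1.01). Plg ranged from 0.225 CPM in the fourth DC-101 vehicle tumour to 4711 CPM in high dose replicate 1. F11 and F12 had slopes of 0.776 and 0.845. Klkb1, plasma prekallikrein, had the third lowest r of the class (0.825), and 43.2% of its exon bases are shared on the same strand with the gene model Gm45753, so that reads there could not be assigned to Klkb1. The plasma inhibitors antithrombin (Serpinc1, r 0.974), heparin cofactor II (Serpind1, 0.959), alpha-2-antiplasmin (Serpinf2, 0.973) and Hrg (0.966) all followed Alb. Serping1, the C1 inhibitor gene, was the exception in this group, with a slope of 0.541.

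The terminal complement genes C6, C8a, C8b, C8g, C9 and Hc followed Alb, as did Cfi, the factor I protease that cleaves C3b, and the lectin genes Mbl1, Mbl2 and Masp2. Hc ranged from 0.18 to 1179 CPM and C9 from 0.132 to 650.1 CPM. Mbl2, a mannose-binding lectin, had no read in that same vehicle tumour and 460.3 CPM in high dose replicate 1. Reads of Masp2 may in part have been dropped as shared, since opposite-strand exons of Tardbp cover 54.9% of its exon bases. The same holds for 34.4% of Serpinc1 (Zbtb37) and 18.4% of C1s1 (Gm16567). Whether reads were lost in this way depends on the strand setting of the counts, which was not given in the sources used here.

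Of the intermediate complement genes C3, C1ra, C1s1 and Masp1 were still well counted where Alb was almost absent, and C3, C4b, C2, Cfb and C1ra had their lowest levels of all 32 libraries among these 3 tumours. C3, the point where the complement routes meet, was still at 382.5 and 261.5 CPM in vehicle tumours 1 and 4 of the DC-101 experiment, and it was at 779.7 CPM in DC-101 replicate 1, whose F2 was 1.21 CPM. In that last library C3 made up 61.0% of all member reads, against 14.4% to 42.3% in the other 31 libraries. C3 was also the most abundant member by CPM over all libraries, with a median of 997.7 CPM, and the members together made up 0.0899% to 4.97% of the reads in a library.

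C4b, which the classical and lectin routes cleave, was at 70.1 and 55.4 CPM in these vehicle tumours but at 21.55 CPM in DC-101 replicate 1. Serping1 differed in the same direction, with 85.7 and 32.95 CPM against 2.505 CPM, and so did F10, with 4.17 and 4.18 CPM against 0.821 CPM. The 3 libraries with little Alb thus differed among themselves in these members. C1ra and C1s1, the proteases of the C1 complex, and Masp1, a protease of the lectin route, had within-group SDs of 0.54, 0.63 and 0.49 log2 units, below the 1.01 of C3, with lowest levels of 46.0, 65.7 and 60.7 CPM and medians of 77.4, 117.2 and 104.4 CPM. Cfb, factor B of the alternative route, was counted at 0.18 to 7.58 CPM and C2 at 0.605 to 25.9 CPM. For these genes 79.5% and 42.8% of the exon bases are shared on the same strand with the gene model Gm20547, and reads there are assigned to neither gene.

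**Figure D3:**
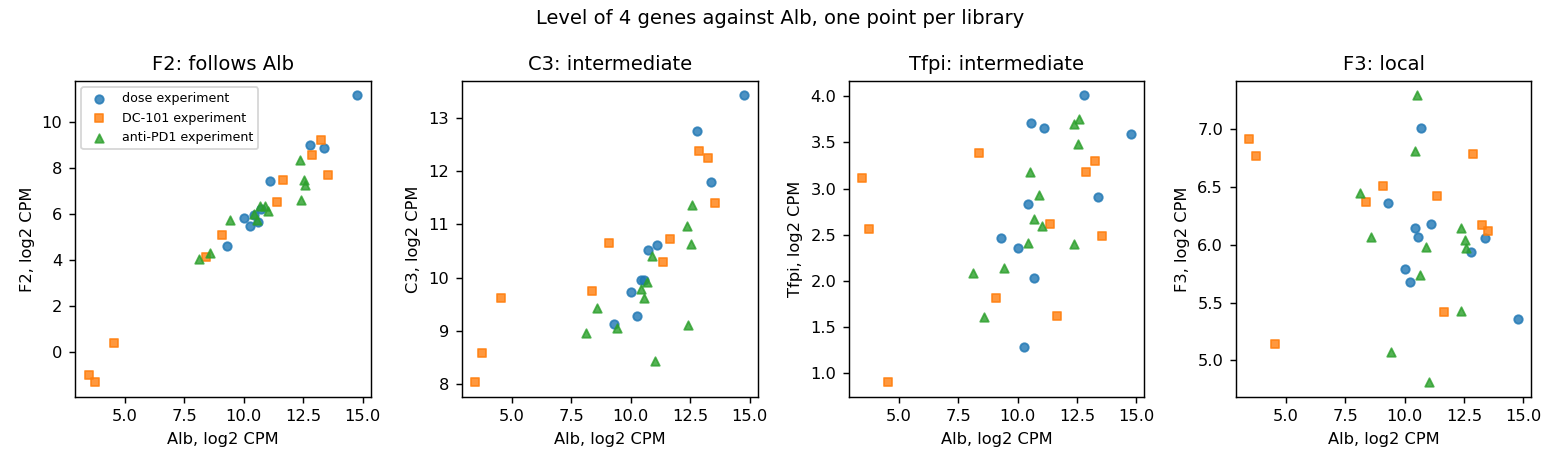
Level of F2, C3, Tfpi and F3 (vertical axes) against Alb (horizontal axes), all as TMM log2 CPM, with 1 point per library and a marker for each experiment. F2 falls along one line down to the 3 libraries with Alb under 23.2 CPM, C3 flattens there, and F3 has a slope of −0.0023 over all groups.

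The local members were counted in every tumour and had within-group SDs of 0.32 to 0.62 log2 units, against 2.4 for F2. Tissue factor (F3) ranged from 27.9 to 156.9 CPM with a median of 68.2, protein S (Pros1) from 42.4 to 122.4 with a median of 72.5, thrombomodulin (Thbd) from 12.7 to 87.3 with a median of 21.4, and the protein C receptor (Procr) from 5.60 to 29.8 with a median of 12.98 CPM. The r of F3 with Alb, −0.009 over all groups, was −0.848 in the vehicle tumours alone and −0.563 within the dose experiment. Protein C itself (Proc) followed Alb (r 0.943), so the zymogen and its receptor and cofactors fell in different classes. Per kilobase of exon in the vehicle libraries F3 (28.7 CPM) was above Pros1 (17.9 CPM), and their ranges of 24.8 to 47.7 and 13.5 to 23.5 did not overlap. Procr and Thbd, at 5.96 and 5.83 CPM per kilobase, had ranges of 4.96 to 11.5 and 3.66 to 14.5, so their order lay within their spread.

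Thbd was at 13.6 to 21.7 CPM in the vehicle tumours of the dose experiment, 13.4 to 24.9 CPM at the low dose, and 12.7, 87.3 and 24.03 CPM at the high dose. Beside DC-101 it was at 29.1 to 54.2 CPM in vehicle, 21.3 to 65.1 CPM at the low dose and 15.9 to 35.2 CPM under the antibody. In the anti-PD1 experiment it was at 14.1 to 38.1 CPM in vehicle, 17.2 to 22.1 CPM at the low dose, 15.9 to 17.5 CPM under anti-PD1 and 20.6 to 24.8 CPM under both. Every treated group overlapped its vehicle group for this receptor of thrombin. Pros1 was at 58.8 to 73.9 CPM in vehicle, 63.96 to 84.9 CPM at the low dose and 42.4 to 122.4 CPM at the high dose of the dose experiment. Beside DC-101 its ranges were 55.2 to 91.25 CPM in vehicle, 53.95 to 77.4 CPM at the low dose and 77.6 to 82.6 CPM under DC-101. In the anti-PD1 experiment it was at 69.1 to 95.9 CPM in vehicle, 61.97 to 64.99 CPM at the low dose, 53.75 to 84.1 CPM under anti-PD1 and 66.6 to 81.3 CPM under both. Pros1 was thus lower in every low dose tumour of that experiment and overlapped vehicle elsewhere. F3 there was at 62.65 to 70.4 CPM in vehicle, 27.9 to 112.1 CPM at the low dose, 33.6 to 156.9 CPM under anti-PD1 and 43.1 to 63.04 CPM under both. The singly treated groups spread on both sides of the vehicle range, and under both agents 2 of 3 tumours were below it.

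Of the weakly counted members, C2 was at 0.988 to 4.37 CPM in vehicle, 1.36 to 5.69 CPM at the low dose and 2.31 to 25.9 CPM at the high dose of the dose experiment. Beside DC-101 it was at 1.75 to 3.20 CPM in vehicle, 2.91 to 12.2 CPM at the low dose and 0.605 to 16.7 CPM under DC-101, and in the anti-PD1 experiment at 2.38 to 8.37 CPM in vehicle, 1.66 to 3.46 CPM at the low dose, 1.65 to 3.05 CPM under anti-PD1 and 3.18 to 11.01 CPM under both. All these groups overlapped their vehicle. Cfb was at 0.247 to 1.23 CPM in vehicle, 0.419 to 1.61 CPM at the low dose and 0.392 to 7.58 CPM at the high dose, and in the DC-101 experiment at 0.18 to 1.80 CPM in vehicle, 1.51 to 5.31 CPM at the low dose and 0.691 to 5.38 CPM under DC-101. In the anti-PD1 experiment it was at 0.558 to 2.02 CPM in vehicle, 0.327 to 0.527 CPM at the low dose, 0.194 to 0.627 CPM under anti-PD1 and 0.827 to 1.14 CPM under both, and the low dose tumours alone did not overlap vehicle.

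The high dose of regorafenib was the setting in which members passed the test. All 42 had a log2 change above 0 against vehicle, with a median of 3.47, where the median of all 16525 genes tested was 0.02. Without high dose replicate 1 the median was 1.85. The test called 7 of 42 members (16.7%) at an adjusted p under 0.05 (edgeR quasi-likelihood test, Benjamini-Hochberg adjustment), all of them higher. This share was near the 15.6% of all genes called in either direction, while 8.8% of all genes were called higher. At an unadjusted p under 0.05 there were 37 members, against 40.1% of all genes. The count depended on the tool and setting: DESeq2 called 36 members and 31.9% of all genes, limma voom 1 and 8.06%, scaling by the total count 1 and 1.71%, no filter 0 and 1.34%, the replicate block 0 and 0.00605%, and a fit of only the groups compared 0 and 0.0249%.

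Of the 7 members called, 5 were intermediate, namely C1s1, C1ra, Masp1, C4b and C3, and 2 followed Alb, namely F7 and Klkb1. C1s1 had 224.5 to 941.6 CPM at the high dose and 75.6 to 124.9 CPM in vehicle tumours, a log2 change of 2.51 (SE 0.52, adjusted p = 0.0322), with the limit on opposite-strand exons given above. C1ra had 103.1 to 497.6 CPM against 72.1 to 99.1 CPM, a log2 change of 1.82 (SE 0.49, adjusted p = 0.0446), and Masp1 had 106.3 to 400.6 CPM against 60.7 to 88.4 CPM, a log2 change of 1.57 (SE 0.41, adjusted p = 0.0428). For these 3 proteases of the initiating complexes every high dose tumour was above every vehicle tumour, which was so for 3 of 42 members and for 11.8% of all genes.

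C4b was at 2834, 1746 and 217.4 CPM in the high dose tumours and at 62.5 to 265.2 CPM in vehicle (log2 change 3.43, SE 0.93, adjusted p = 0.0454). C3 was at 10958, 6904 and 1459 CPM against 561.5 to 1576 CPM (log2 change 2.64, SE 0.76, adjusted p = 0.0484). In both genes, and in F7 and Klkb1 too, the third high dose tumour fell inside the vehicle range. F7, coagulation factor VII, was at 125.5, 27.2 and 5.02 CPM against 1.40 to 6.71 CPM (log2 change 4.02, SE 1.17, adjusted p = 0.049), and Klkb1 was the seventh, at 250.6, 45.5 and 3.10 CPM against 0.658 to 6.23 CPM, with the largest log2 change of all members, 5.02.

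A large change often came with a spread that kept it from being called. Among the 30 that followed Alb the median log2 change was 3.67, among the 8 intermediate ones 2.5 and among the 4 local ones 0.31. Fga was at 10597, 2295 and 517.5 CPM in the high dose tumours against 191.7 to 1307 CPM in vehicle, so 1 of 3 tumours was inside the vehicle range, and its log2 change of 2.76 had an adjusted p of 0.117. Alb itself changed by 3.08 (SE 1.06, adjusted p = 0.0671), and of the 15 hepatocyte markers 3 were called higher, with a median log2 change of 4.22. The mean log2 CPM of the hepatocyte markers was 6.30, 9.22 and 11.74 in the high dose tumours and reached 7.24 in vehicle, so the groups overlapped. High dose replicate 1, the library with the most Alb, also had the lowest TMM factor of all 32, 0.678, and the highest mitochondrial share of reads, 5.37%. That share was 2.86% and 2.14% in the other high dose tumours and 1.84% to 2.31% in vehicle, and its part in the members' values was not tested. With the hepatocyte marker mean as a term in the fit, 0 of 42 members were called (edgeR; 0.756% of all genes were), and the median log2 change of the members was −0.18. Within groups 31 of the 42 members followed these markers at an r of 0.8 or more. A smaller change with this term is thus built in for them, and the fit cannot tell a cause. Leaving out high dose replicate 1, 2 or any 1 vehicle library left 0 of 42 members called, and leaving out high dose replicate 3, the tumour with the least Alb of its group, left 33 called, in a fit that called 41.1% of all genes.

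**Figure D4:**
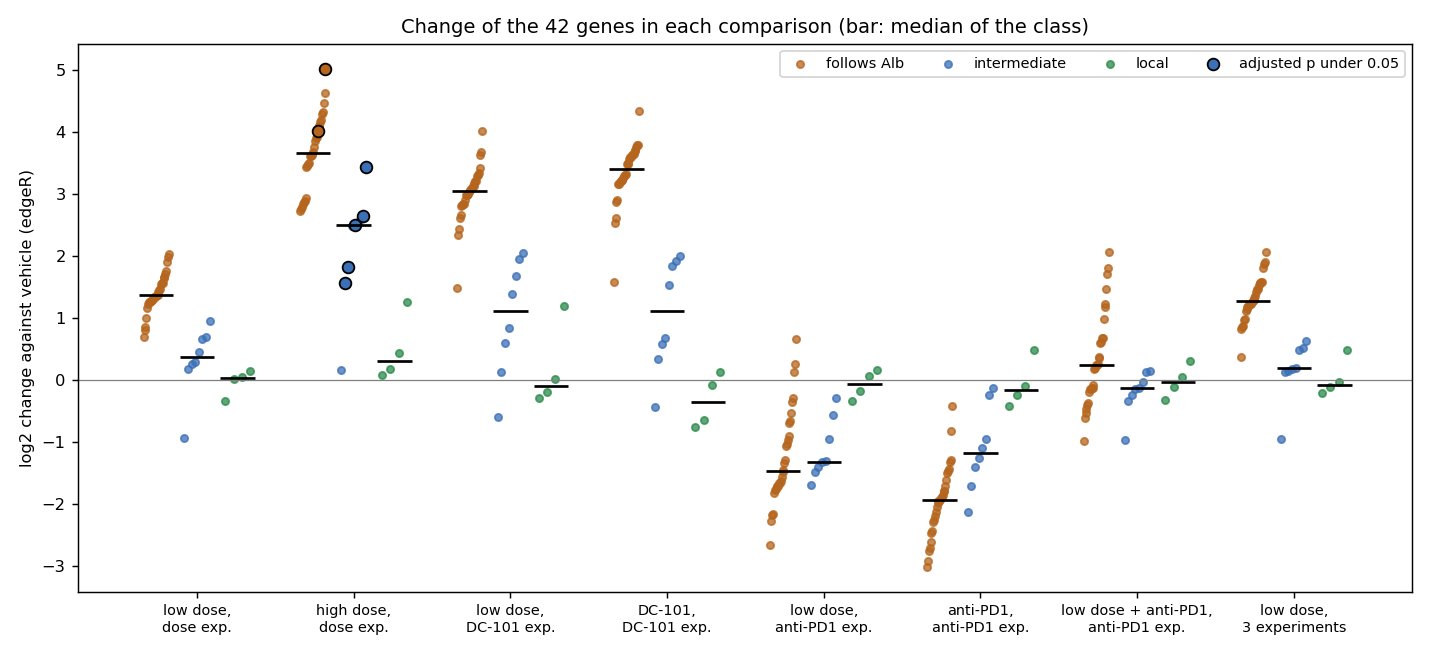
Log2 change against the vehicle group of the same experiment (vertical axis) for each of the 42 genes in the 8 comparisons (horizontal axis), by class, with a bar at the median of each class and black outlines for an adjusted p under 0.05. The genes that follow Alb have the widest excursions, with medians of 3.67 at the high dose and −1.94 under anti-PD1, and the local genes have medians between −0.36 and 0.31.

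At the low dose 0 of 42 members were called when the 3 experiments were fitted together with the experiment as a term, against 1.77% of 15562 genes, and 4 members had an unadjusted p under 0.05, against 16% of all genes. DESeq2 called 2 members (Tfpi lower and C8g higher) and 5.73% of all genes, and limma voom called 1 member (Tfpi) and 1.95% of all genes. The median log2 change of the members was 1.19, with 38 of 42 above 0, but the medians of the experiments lay on both sides of 0. They were 1.28 for the dose, 2.88 for the DC-101 and −1.32 for the anti-PD1 experiment, and the pooled median was 0.04 without the DC-101 experiment and 0.59 without the 3 libraries of little Alb. The test of whether the low dose change differed between experiments called 0 of 42 members and 0% of all 15562 genes, with 1481 genes at an unadjusted p under 0.05, and the members with the smallest p were F7 (adjusted p = 0.406) and Procr (adjusted p = 0.406). A single tumour set the sign in the dose experiment. When the third low dose tumour there was left out, whose Alb was 10751 CPM against 1220 and 1030 CPM in the others, the median of that experiment was −0.57 and that of the pooled fit 0.41.

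Tfpi, the tissue factor pathway inhibitor made largely by endothelium, was the member with the smallest p at the low dose. In the dose experiment it was at 5.43, 12.96, 7.05 and 12.5 CPM in vehicle tumours and at 2.34, 5.06 and 7.42 CPM in low dose tumours. In the DC-101 experiment it was at 5.79, 10.4, 6.08 and 8.63 CPM in vehicle and at 2.97, 3.41 and 8.96 CPM at the low dose. These pairs of groups overlapped. In the anti-PD1 experiment it was at 11.04, 12.9 and 13.4 CPM in vehicle and at 5.23, 5.94 and 2.96 CPM at the low dose, with no overlap.

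The pooled log2 change of Tfpi was −0.96 (SE 0.26, adjusted p = 0.0646), and it was −0.94, −0.60 and −1.40 in the separate experiments, while most members were above 0 in the dose and DC-101 experiments. With the hepatocyte marker mean as a term the change was −1.19 with an adjusted p of 0.0165, in a fit that called 1.33% of all genes. Over scalings, filters, tools and libraries left out, the change was between −0.77 and −1.19 and its adjusted p between 0.00993 and 0.249. It passed the threshold when the third low dose tumour of either the dose experiment (adjusted p = 0.0411) or the DC-101 experiment (adjusted p = 0.013) was left out. Endothelial markers moved with it: 7 of 7 had a pooled log2 change below 0, of which 5 were called lower (Cldn5, Cdh5, Emcn, Esam and Pecam1), with a median of −1.25. The mean log2 CPM of the 7 markers was 4.10 to 5.61 in the 11 vehicle tumours and 2.90 to 4.03 in the 9 low dose tumours, with no overlap, and none of the 7 was at 0 in any library. At the high dose Tfpi was at a log2 CPM of 3.59, 4.01 and 2.03, against 2.46 to 3.71 in vehicle, with a log2 change above 0. There 6 of 7 endothelial markers had a log2 change below 0 and 2 were called lower. Under DC-101 Tfpi was at a log2 CPM of 0.9, 2.49 and 3.3, against 2.56 to 3.39 in vehicle, and 7 of 7 markers were below 0. The part of these markers in the Tfpi values was not tested.

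C8g, a chain of the terminal complement component C8, had the next smallest pooled p (log2 change 2.06, SE 0.72, adjusted p = 0.154). Its low dose levels spread from 1.53 to 50.8 CPM and its vehicle levels from 0.219 to 12.98 CPM, so the groups overlapped widely.

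The dose experiment alone gave 0 of 42 members called at the low dose (0% of 16525 genes; 0 members at an unadjusted p under 0.05, against 4.94% of all genes). DESeq2 called 0 members and 0.514% of all genes, and limma voom 0 members and 0% of all genes. The smallest p belonged to Tfpi (log2 change −0.94, SE 0.56, adjusted p = 0.991) and Masp1 (0.65, SE 0.41, adjusted p = 0.991). Masp1 was at 94.97 to 160.1 CPM at the low dose and 60.7 to 88.4 CPM in vehicle, with no overlap, as for 1 of 42 members and 6.92% of all genes. In the same experiment F3 was at 51.2, 55.4 and 66.8 CPM at the low dose and 67.1 to 82.2 CPM in vehicle, with a log2 change of −0.34, and no overlap downward held for 1 of 42 members and 6.99% of all genes.

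In the DC-101 experiment the low dose called 0 of 42 members (0.0248% of 16138 genes), and 5 members had an unadjusted p under 0.05, against 17.1% of all genes. DESeq2 called 1 member, Procr, and 6.8% of all genes, and limma voom called 0 members and 0.0248% of all genes. Procr was at 29.8, 28.3 and 22.9 CPM in the low dose tumours and at 12.8, 13.1, 11.4 and 10.1 CPM in vehicle, with no overlap, which held for 2 of 42 members, Procr and C3, and 6.93% of all genes in that direction. Its log2 change was 1.19 (SE 0.19, adjusted p = 0.0753), and the DC-101 tumours, at 13.6, 8.27 and 11.8 CPM, overlapped the vehicle range. Elsewhere the same dose gave overlapping levels of Procr, 9.53 to 12.9 CPM against 10.97 to 12.1 CPM in the dose experiment and 14.8 to 25.4 CPM against 12.2 to 23.3 CPM beside anti-PD1. Its change without the 3 libraries of little Alb was 1.14 (adjusted p = 0.508, with 2 vehicle libraries left). C3 was next (1604 to 5278 CPM against 261.5 to 1260.4 CPM, log2 change 2.05, SE 0.75, adjusted p = 0.229).

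DC-101 itself called 0 of 42 members (0% of 16138 genes), and this comparison shares its vehicle tumours with the low dose one. At an unadjusted p under 0.05 there were 3 members, against 13.2% of all genes, while DESeq2 called 0 members and 2.31% of all genes and limma voom 0 members and 0% of all genes. The median log2 change was 3.22, the largest SE among the members was 2.12, and Alb changed by 3.25 (SE 2.10). Of the vehicle tumours 2 had almost no Alb, and without the 3 libraries of little Alb the median was 2.83 under DC-101 and 1.96 at the low dose. C3 (log2 change 2.01, SE 0.75, adjusted p = 0.344) and Masp2 (2.62, SE 1.04, adjusted p = 0.356) had the smallest p. With the hepatocyte marker mean as a term the median was −0.65 and the change of Masp2 −0.04, with the limit on this term given above. Leaving out single libraries gave medians from 1.54 (without DC-101 replicate 3) to 5.15 (without vehicle replicate 3). F3 was lower in every DC-101 tumour, at 35.2, 69.4 and 71.9 CPM, than in every vehicle tumour, at 82.7 to 120.5 CPM, with a log2 change of −0.76 (edgeR, adjusted p = 0.386), as for 1 of 42 members and 8.19% of all genes.

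Liver members and Alb did not keep one ratio in the DC-101 tumours. DC-101 replicates 2 and 3 had similar Alb, 11806 and 9657 CPM, but Fga was at 1223 and 5332 CPM, Plg at 320.7 and 964.8 CPM and F2 at 205.4 and 589.3 CPM. Relative to Alb, Fga was 10.4% in the former and 55.2% in the latter. In vehicle tumours of the anti-PD1 experiment Fga was 8.67% to 20.2% of Alb, below the 30.2% to 58.6% of the vehicle tumours of the dose experiment.

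**Figure D5:**
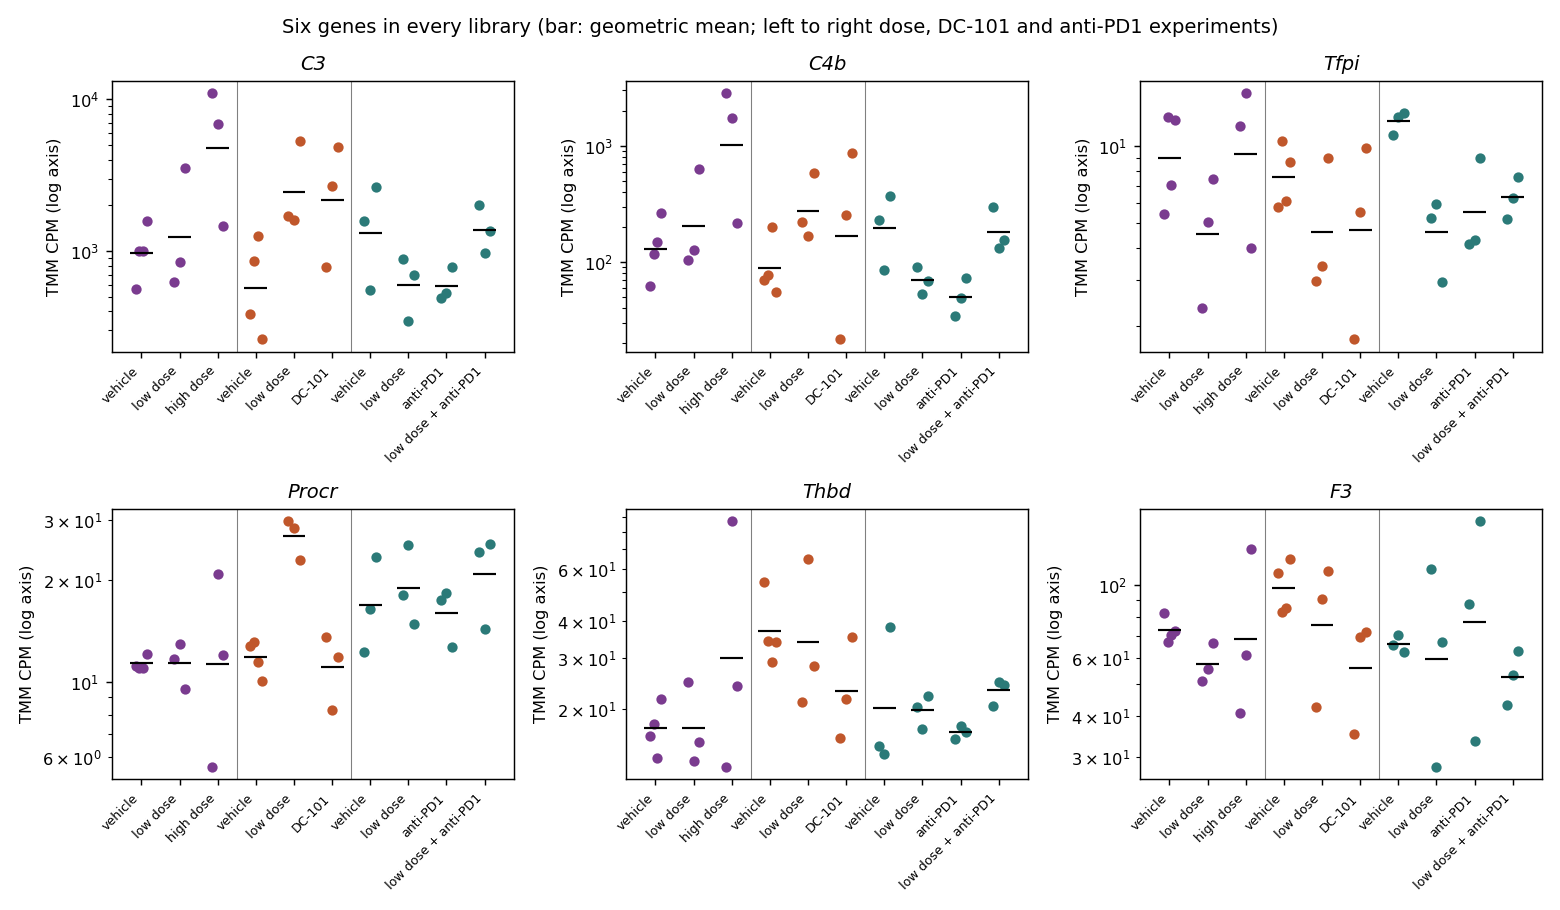
Level of C3, C4b, Tfpi, Procr, Thbd and F3 in each library (points, TMM CPM on a log axis) by group, with a bar at the geometric mean and vertical lines between the 3 experiments. Procr is at 22.9 to 29.8 CPM in the 3 low dose tumours of the DC-101 experiment, where it did not pass the test (adjusted p = 0.0753), and Tfpi of all 9 treated tumours of the anti-PD1 experiment lies under the lowest vehicle tumour (11.04 CPM).

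In the anti-PD1 experiment most members had values below vehicle in the singly treated tumours, and none passed the test. At the low dose 37 of 42 members had a log2 change below 0, with a median of −1.32, and under anti-PD1 41 of 42 did, with a median of −1.79. The tests called 0 of 42 members in each (0% of 16615 genes). At an unadjusted p under 0.05 there were 20 members at the low dose, against 11.8% of all genes, and 29 under anti-PD1, against 13.7%. DESeq2 called 4 and 10 members, all lower, against 2.56% and 3.7% of all genes, and limma voom called 0 members and 0% of all genes in both. The same 3 vehicle tumours served both comparisons and the combination. They had the most even and high Alb of the study's vehicle groups, 5356 to 6103 CPM, against 383.1 to 2100.3 CPM at the low dose and 280.4 to 1486 CPM under anti-PD1. All 15 hepatocyte markers were below 0 in both comparisons, with medians of −1.73 and −2.53. Other lists lay as low: the 3 Kupffer cell markers had medians of −2.48 and −2.81 and the 3 platelet and megakaryocyte markers −2.49 and −2.21, all of them below 0. Vehicle replicate 3 stood apart in the platelet gene Pf4, at 174.2 CPM against 15.9 and 45.5 CPM in its group. Replicate 2 of the vehicle and of the low dose group shared a low mitochondrial share of reads, 0.26% and 0.312%, and low Col1a1, 421.3 and 332.3 CPM. The part of these in the members' values was not tested.

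For 18 of the 42 members every low dose tumour was below every vehicle tumour, which held for 7.36% of all genes, and under anti-PD1 this was so for 24 of 42 members, against 9.2% of all genes. Fgb, for example, was at 1155, 713.4 and 1514 CPM in vehicle, at 480.9, 329.8 and 188.4 CPM at the low dose and at 117.8, 368.6 and 287.3 CPM under anti-PD1. At the low dose Tfpi (log2 change −1.40, SE 0.38, adjusted p = 0.248) and F7 (−2.67, SE 0.77, adjusted p = 0.264) had the smallest p. F7 was at 8.07, 6.19 and 23.4 CPM in vehicle and at 2.30, 2.83 and 0.808 CPM at the low dose. Under anti-PD1 these were C4b (−2.14, SE 0.52, adjusted p = 0.249) and Kng1 (−2.71, SE 0.67, adjusted p = 0.249). C4b was at 230.7, 85.3 and 373.3 CPM in vehicle and at 34.5, 48.9 and 73.4 CPM under anti-PD1, with no overlap.

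The combination of the low dose with anti-PD1 gave values on both sides of vehicle. The test called 0 of 42 members (0% of 16615 genes), 22 members were above 0 and 20 below, and the median log2 change was 0.09. At an unadjusted p under 0.05 there was 1 member, against 8.2% of all genes, while DESeq2 called 0 members and 0.903% of all genes and limma voom 0 members and 0% of all genes. Tfpi was the 1 member, at 5.18, 6.29 and 7.55 CPM against 11.04 to 13.4 CPM in vehicle (log2 change −0.97, SE 0.37, adjusted p = 0.54). The mean log2 CPM of the 7 endothelial markers was 3.42 to 3.90 in these tumours, 3.70 to 3.97 under anti-PD1 and 4.10 to 4.80 in vehicle, so both treated groups lay below vehicle, and its part in the Tfpi values was not tested. Mbl1 had the next smallest p (1.72, SE 0.90, adjusted p = 0.65). Combination replicate 1 had Alb at 5243 CPM, Plg at 475.4 CPM and C9 at 172.9 CPM, and without it the median of the members was −0.66.

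The other genes of these pathways, 49 of which were tested and none of which is a member, include receptors and regulators that blood and stromal cells make. In the pooled low dose fit 0 were called higher and 3 lower, where 1.77% of all genes were called, 114 higher and 162 lower. The 3 were the thrombin receptors F2r (log2 change −0.56, SE 0.10, adjusted p = 0.00385) and F2rl3 (−1.18, SE 0.24, adjusted p = 0.0151), and Serpine2 (−1.33, SE 0.25, adjusted p = 0.00951), an inhibitor of thrombin on cell surfaces. Without the DC-101 experiment 0 of these genes were called, in a fit that called 17 of 15690 genes. F2r was at 159.8 to 255.7 CPM in the 11 vehicle tumours and at 93.5 to 141.5 CPM in the 9 low dose tumours. The endothelial markers given above moved in the same direction as these genes, and their part was not tested.

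At the high dose 6 of these 49 genes were called higher and 11 lower, where 15.6% of all genes were called, 1455 higher and 1127 lower. Those called higher included A2m, a broad protease inhibitor (log2 change 3.51, adjusted p = 0.0143), Cd59a, C7, Ggcx and C1s2, the paralogue of C1s1. C7 was at 5.43, 24.5 and 0.314 CPM at the high dose and 0.286 to 0.477 CPM in vehicle, so the third tumour was inside the vehicle range. High dose replicate 2 stood apart in other genes of this list, with Cfd at 282.5 CPM against at most 2.26 CPM in every other library and Vwf at 103.4 CPM against at most 35.7 CPM. The genes called lower included the complement receptor chains Itgam (−2.80, adjusted p = 0.0143), Itgax (−1.63) and Itgb2 (−1.01), the C1q genes C1qa (−1.45), C1qb (−1.29) and C1qc (−1.46), and Cd93, C5ar2, Plaur, F2r and F2rl3. C1qa was at 127.2 to 328.0 CPM at the high dose and 386.0 to 758.6 CPM in vehicle. In this fit C1ra and C1s1 of the C1 complex were called higher and the 3 C1q chains lower, and these 5 calls were lost in a fit of only the groups compared, with the replicate block, with the hepatocyte marker mean as a term and when any 1 vehicle library was left out. Of the 17 calls among the 49 genes, a fit of only the groups compared made 1, that of A2m, the replicate block made 0, and leaving out any 1 vehicle library left 0 to 2. Macrophage markers moved with the C1q genes, 3 of 5 being called lower, and their part in these values was not tested.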

How the data were processed

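Per the labels RNA came from frozen tissue, whereas the study's methods speak of fresh tumour samples, and it was made into stranded libraries with the TruSeq Stranded mRNA kit. According to the submitters' notes and the study's methods, reads were trimmed with cutadapt 2.4 and aligned to GRCm38 with STAR 2.7.2a, which counted reads per gene. The deposited files hold these raw counts, which the authors neither normalized nor filtered, for 3 experiments; 0 columns were left unused. The strand column taken was not given in the sources used here, and reads shared by overlapping genes are dropped by this counting, which lowers genes such as Cfb.

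Low genes were removed with filterByExpr, at a minimum count of 10 and a minimum total of 15, and the rest were scaled by TMM and tested with the robust quasi-likelihood test of edgeR 4.0.16 (R 4.3.3), with all groups of an experiment in one fit and Benjamini-Hochberg adjustment over all genes tested. The low dose was also fitted over the 3 experiments with the experiment as a term. Log2 CPM used a prior count of 2. Limma 3.58.1 with voom (the study used limma after TMM and does not name voom), DESeq2 1.42.0, other scalings, no filter, a replicate block, a hepatocyte covariate and leaving out libraries were alternatives, and the fit was tested on simulated data. Correlations with Alb, in Python 3.11.15, are descriptions. Nothing in the labels says that each library is a separate mouse, so p-values measure the spread between libraries of a group. Of 36 same-group library pairs none was a duplicate (chi-square per degree of freedom at least 13.97). Of 36 pairs with the same replicate number 13 had correlated deviations (r over 0.1). All 3 pairs of one comparison did so for the low dose against vehicle in the anti-PD1 experiment (r 0.106, 0.579 and 0.324) and for no other, so numbers were taken as pairing there, from the data alone. The labels give no pairing, and this rule cannot establish one, since pairs of other comparisons passed the same limit. Coordinates and exon lengths are from Gencode on GRCm38.

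By the naming rule, members that did not follow Alb and chosen liver members were to be given in every group; the text does so for Thbd, Pros1, C2 and Cfb and gives the others by overall range or in the groups a result turned on, with every library plotted. The rule also gives full statistics for up to 6 called members per direction, or the 2 with the smallest p. The other members are described by class, and genes whose groups did not overlap were named after their values were seen. The members and lists were chosen with earlier results of these data known.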

Additional observations from a re-analysis of the deposited data

Results flagged for a closer look

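In the groups of 4 vehicle tumours, each member and Alb was checked for a tumour that stood far from the other 3, in 86 sets of 4 values, of which chance would mark about 1 in 20. Procr in the vehicle tumours of the dose experiment was marked for replicate 4, at a log2 CPM of 3.61 where the others lay between 3.47 and 3.49, a difference that is small on the CPM scale. Klkb1 in the vehicle tumours of the DC-101 experiment was marked for replicate 3, at a log2 CPM of 1.70 where the others lay between −2.55 and −1.90. That replicate also had the highest Alb of its group, 2661 CPM.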

How the results depend on the processing

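The number of members called was 0 to 1 at the low dose over the 3 experiments when single libraries were left out. It was 1 with scaling by the total count, 1 with limma voom, 1 with the hepatocyte covariate and 2 with DESeq2. At the high dose, where 7 were called, the number was 1 with scaling by the total count, 0 without the filter, 36 with DESeq2, 1 with limma voom, 0 with only the groups compared, 0 with the hepatocyte covariate and 0 with the replicate block (1 call over all genes), and 0 to 33 when single libraries were left out. Over all genes the calls at the high dose moved too, to 5275 with DESeq2, 1332 with limma voom, 282 with scaling by the total count, 416 without the filter, 4 with only the groups compared and 7030 without high dose replicate 3. DESeq2 called 1 member at the low dose in the DC-101 experiment, 4 at the low dose in the anti-PD1 experiment and 10 under anti-PD1. With the hepatocyte covariate the median log2 change of the members was −0.18 at the high dose, −0.21 at the low dose and −0.65 under DC-101 in the DC-101 experiment, and Masp2 under DC-101 changed by −0.04. For members that follow the hepatocyte markers a smaller change is built into this fit. Leaving out single libraries gave medians of 1.89 to 4.93 at the low dose and 1.54 to 5.15 under DC-101 in the DC-101 experiment, the highest in both without vehicle replicate 3. The cause of these shifts was not tested. With the hepatocyte list in place of Alb 31 members followed it, with rank correlations 30, in vehicle tumours alone 25 and without the 2 libraries farthest in Alb 26. Of the other values 254 were unchanged, among them the counts of members that followed Alb given just above. For single genes unchanged means the same direction and the same side of the threshold. Among single genes 82 values were no longer past the threshold, 12 were newly past it and 1, that of Masp2 above, changed direction. By the rule on r given above, replicate numbers were taken as pairing only for the low dose against vehicle in the anti-PD1 experiment. There the replicate block also called 0 members, with a median of −1.34. Apart from the high dose the block changed no count of members. Over all genes it called 178 in the pooled low dose fit, against 276, and 0 at the low dose in the DC-101 experiment, against 4. In the pooled fit it called 1 higher and 4 lower of the 49 other pathway genes, against 0 and 3. Leaving out the libraries with little Alb was chosen after seeing the data. Depth limits the liver members in the libraries with little Alb, where 6 members had a library at 0 counts.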
